A study of Arabidopsis thaliana with 9 samples.

Results

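Leaf transcripts of the plant's alternative respiratory pathway were followed through 9 genes. These were 5 alternative oxidases (AOX1A, AT3G22370; AOX1B, AT3G22360; AOX1C, AT3G27620; AOX1D, AT1G32350; AOX2, AT5G64210), 3 alternative NAD(P)H dehydrogenases (NDA1, AT1G07180; NDA2, AT2G29990; NDB2, AT4G05020) and the uncoupling protein UCP1 (AT3G54110). They were chosen by gene identifier and are 9 of the 33602 identifiers in the count table. Wild-type Arabidopsis thaliana Col-0 plants received 1 of 3 treatments, and 3 libraries were made from the leaves of each. Under prolonged warming (PW) the plants were moved at day 23 after sowing to days of 28 °C with nights of 23 °C and stayed there for 7 days. Under heat shock (HS) they were held at 38 °C for 6 hours of the day at day 30, and control plants (CK) had days of 23 °C and nights of 18 °C throughout. All leaves were sampled at day 30. The study calls the 3 libraries of a treatment biological replicates but gives no number of plants behind each, and the hour of the day at which leaves were frozen is not given in the sources used here.

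The main respiratory chain of plant mitochondria pumps protons at complexes I, III and IV. Alternative dehydrogenases bypass complex I: NDA proteins oxidise NADH on the matrix side of the inner membrane, and NDB proteins oxidise NADH or NADPH on its outer side. Alternative oxidase takes electrons from ubiquinol straight to oxygen, past complexes III and IV, and uncoupling proteins let protons flow back. None of these steps conserves energy as ATP, and the genes are known for their response to stress and to faults in the main chain.

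AOX1A and AOX1B are neighbours on chromosome 3, AOX1A at chr3:7906521-7908746 and AOX1B just before it at chr3:7904097-7905576, both on the plus strand. The other oxidase genes are on the minus strand, AOX1C at chr3:10229045-10230707, AOX1D at chr1:11666886-11668690 and AOX2 at chr5:25683770-25685731. NDA1 lies at chr1:2204104-2207099 (plus strand), NDA2 at chr2:12793320-12796085 (minus), NDB2 at chr4:2572427-2576599 (plus) and UCP1 at chr3:20038670-20041210 (plus), all in assembly TAIR10.1. The mitochondrial dysfunction motif is a DNA element bound in Arabidopsis by the membrane-released factors NAC013 and NAC017, and is known from the promoters of AOX1A and other genes that respond to mitochondrial faults. It was searched on both strands as CTTG followed, after any 5 bases, by CAAG (first form) or CACG (second form) in the 500 bases before each gene start, which 1.29% and 0.831% of 27443 promoters hold. The first form was present before NDA1 and NDB2. The last 120 bases before the annotated start of each are shown because these genes were the members that rose most clearly, with the motif in capitals.
NDA1 (chr1:2203984-2204103, plus strand): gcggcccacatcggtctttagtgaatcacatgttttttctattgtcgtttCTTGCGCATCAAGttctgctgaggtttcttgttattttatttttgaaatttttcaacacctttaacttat
NDB2 (chr4:2572307-2572426, plus strand): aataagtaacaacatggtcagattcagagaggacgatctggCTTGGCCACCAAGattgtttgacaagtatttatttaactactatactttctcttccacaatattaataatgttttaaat
The motif ended 58 bases before the start of NDA1 and 67 bases before that of NDB2.

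In AOX1A the motif did not fall in that window, but it did among the 500 bases before the first coding base, where 1.48% of genes hold the first form and 0.904% the second. Both forms were present there, CTTGGCGACCACG at chr3:7906518-7906530 and CTTGCTCTCCAAG at chr3:7906545-7906557, so they lie at and just inside the annotated start of the transcript. AOX1B held the second form on the opposite strand, CGTGTGCTACAAG, at chr3:7903979-7903991. The evening element, which clock factors such as CCA1 bind, was searched in a short form, AAATATCT. NDA1 was the only one of the 9 genes with this short form in the window before its start, where 8.86% of promoters hold it. Before the first coding base, where 8.27% of genes hold it, it was in none of the 9. The CCA1 binding site AAAAATCT was in none of the 9 before the gene start (12.5% of promoters). Before the first coding base AOX1A held it, at chr3:7906558-7906565 (13.2% of genes). The short form of the evening element in NDA1 is shown in capitals, on the strand opposite to the spelling searched.
NDA1 (chr1:2203709-2203748, plus strand): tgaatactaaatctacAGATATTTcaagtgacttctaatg
The G-box CACGTG, a site for light and abscisic acid factors, occurred 4 times before the start of AOX2, and 9.35% of promoters hold it. Among the 500 bases before the first coding base, where 9.34% of genes hold it, it was also present once each in AOX1A, NDB2 and UCP1, so in 4 of the 9 genes. In neither window did any of the 9 genes hold a heat shock element, searched on both strands as GAA, TTC and GAA with any 2 bases between each, which 0.827% of promoters hold before the gene start and 1.2% before the first coding base. A match is a run of letters in a window and not evidence of binding.

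Of the 9 genes, 6 had at least 10 counts in at least 3 libraries and were tested: AOX1A, AOX1C, NDA1, NDA2, NDB2 and UCP1. Each was read from a fit of all 18952 genes that passed this filter, by edgeR's quasi-likelihood test with Benjamini-Hochberg adjustment. Rose and fell are used at an adjusted p under 0.05, and a differentially expressed gene (DEG) also changed at least 2-fold. Levels are CPM, counts scaled to a fixed library size, with TMM factors, and log2 fold changes are positive where the treatment named first was higher. The libraries held 11966328 to 12781806 counts in PW, 11660970 to 13734801 in HS and 13772506 to 17768334 in CK, so that 1 count was worth from 0.0462 to 0.103 CPM. The labels were checked with the heat shock gene HSP21, which ranged from 457 to 1406 CPM in HS, against at most 1.11 CPM in PW and 0.0924 CPM in CK. Leaf markers such as RBCS1A and LHCB1.1 were high in all 9 libraries, with a summed level of the 5 genes from 44226 to 54000 CPM in PW, from 21581 to 32840 CPM in HS and from 12050 to 16421 CPM in CK.

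HS replicate 3 stood apart from its own group across genes, and PW replicate 1 from its group in AOX1A and NDA1. Pearson's r of log2 CPM across genes, which are not independent replicates, was 0.991 for HS replicates 1 and 2, while HS replicate 3 had 0.925 with each of them. Among PW libraries it was 0.944 for replicates 1 and 2, and replicate 3 had 0.970 with each of them. This measure thus did not single out PW replicate 1. Among CK libraries it ranged from 0.984 to 0.991. The deviations of PW replicate 1 and HS replicate 3 from their group means had a correlation of 0.531 across genes. Those of PW replicate 2 had 0.515 with HS replicate 1 and 0.439 with HS replicate 2. Deviations within a group cancel out, so these values are not separate and do not single out any library. PW replicate 1 and HS replicate 3 carried the peroxidase gene PER33, known from roots, at 40.2 and 15.8 CPM. It was at most 2.16 CPM in the other 4 heated libraries and from 21.1 to 35.3 CPM in CK. The other 6 root markers were at 1.57 CPM or lower in every library, and the defining markers IRT1, EXPA7 and PRP3 were at or near 0. The fitted changes, the correlations and the order of the genes by level are also given without PW replicate 1 and HS replicate 3 or by library. This alternative was chosen after seeing the data. In these bulk samples, fewer cells of a type and less RNA per cell cannot be told apart.

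AOX1A, the main stress-responsive oxidase of leaves, rose in HS and not beyond the spread in PW. It stood at 26.1, 66.8 and 67.0 CPM in PW, at 75.7, 66.0 and 25.4 CPM in HS and at 20.7, 26.3 and 23.8 CPM in CK. In each heated group 2 libraries were well above all CK libraries and 1 lay within the CK range, so both groups overlapped CK. In PW vs CK the log2 fold change came to 1.17 ± 0.44 (SE, adjusted p = 0.0702), and in HS vs CK to 1.24 ± 0.44 (2.36-fold, adjusted p = 0.0495) by edgeR's quasi-likelihood test. The HS call was close to its threshold, and of the 9 fits that each left out 1 library only those without PW replicate 1 (adjusted p = 0.0249) or HS replicate 3 (0.0041) made it, the other 7 having adjusted p up to 0.154. In PW vs CK the call was made without PW replicate 1 (1.50, adjusted p = 0.0214) or HS replicate 3 (1.17, adjusted p = 0.0149) and in none of the other 7. Without both the values were 1.59 in HS vs CK (adjusted p = 2.37e-05) and 1.50 in PW vs CK (adjusted p = 4.84e-05). Same-numbered PW and CK libraries deviated together at 0.16, 0.29 and 0.33. Some differently numbered libraries did so more strongly, such as PW replicate 1 with HS replicate 3 (0.531) and PW replicate 2 with HS replicate 1 (0.515). No source says that the numbers mark pairs, so a pairing is not established. A fit of the 6 PW and CK libraries with the replicate number as a block was chosen after seeing the data. It made the PW call (1.07 ± 0.23 SE, adjusted p = 0.013), as did the fit of both groups without the block (1.18, adjusted p = 0.0266). PW and HS did not differ in AOX1A beyond the spread, with a log2 difference of -0.06 and a 95% interval from -1.03 to 0.91, which reaches down to a 2-fold lower level in PW.

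The 4 libraries at 66.0 CPM of AOX1A or more had PER33 at 0, 0, 0 and 2.16 CPM. The 5 libraries with PER33 at 15.8 CPM or more had AOX1A between 20.7 and 26.3 CPM. Of the root markers only PER33 reached such levels, the next highest being RCI3 at 1.57 CPM in CK replicate 1. These 2 groups of libraries, split by AOX1A and PER33, cross the treatments, since the second holds all of CK, 1 PW and 1 HS library. The summed flower markers were also higher in PW replicate 1, at 23.8 CPM against 3.08 and 9.27 CPM in the other PW libraries, and in HS replicate 3, at 5.95 CPM against 2.17 and 1.57 CPM in the other HS libraries. In CK they ranged from 1.89 to 29.3 CPM. Single flower markers did not all follow these sums. AG had 17, 15 and 0 counts in HS replicates 1, 2 and 3, while the other flower markers were highest in HS replicate 3. In PW, AP1 and LFY were highest in replicate 3, at 2.57 and 0.618 CPM, and the others in replicate 1. The part of other tissues in the AOX1A levels was not tested.

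**Figure D1:**
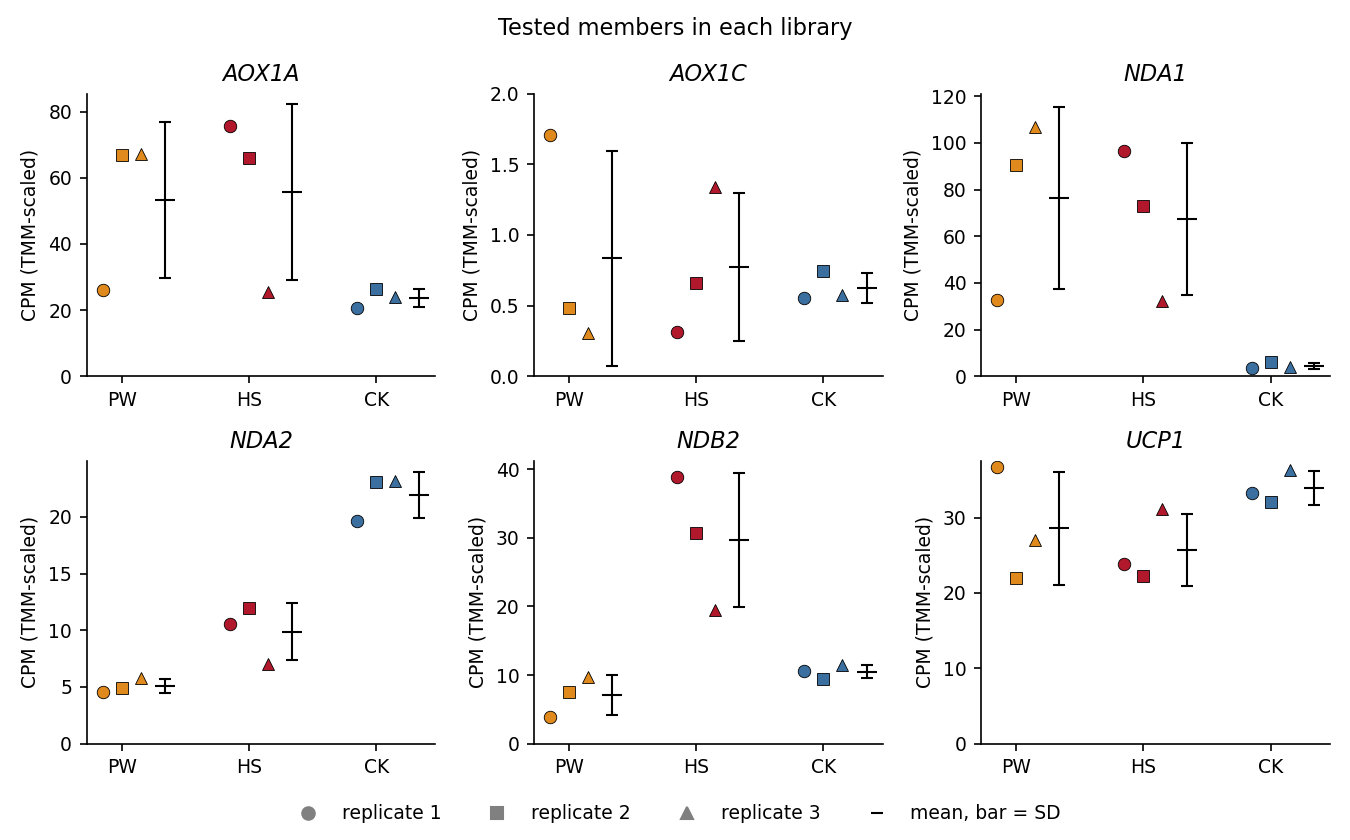
CPM (TMM-scaled, vertical axis from 0) of the 6 tested genes in each library of PW, HS and CK, with symbols for replicates 1, 2 and 3 and a bar for the mean and SD of 3 libraries. PW replicate 1 and HS replicate 3 sit at 26.1 and 25.4 CPM for AOX1A, within the CK range, while for NDA1 all 6 heated libraries lie at 32.1 CPM or more and all CK points at 5.91 CPM or less.

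The other 4 oxidase genes contributed little. AOX1B, known mainly from flowers, had no count in any of the 9 libraries, which allows up to 3 counts or from 0.139 to 0.309 CPM in a library. AOX1C, an oxidase gene with little known response to stress, was counted 20, 5 and 3 times in PW, 4, 8 and 18 times in HS and 12, 13 and 9 times in CK. The groups overlapped, and its log2 fold changes were 0.43 ± 0.71 in PW vs CK and 0.30 ± 0.71 in HS vs CK (SE, adjusted p = 0.673 and 0.757, edgeR). These counts cannot show a change of moderate size, since the 95% interval in HS vs CK ran from -1.29 to 1.90 on the log2 scale.

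AOX1D, which is known to respond to stress and senescence, had 2, 0 and 1 counts in PW, 1, 2 and 8 in HS and 75, 7 and 3 in CK. CK replicate 1 alone held 75 of the 85 counts in CK. The 6 senescence markers summed to 63.0 CPM in CK replicate 1, against 33.6 and 30.5 CPM in the other CK libraries, with SAG13, ORE1, NAP and SGR1 highest in CK replicate 1, as was SAG29 at 0.324 CPM or less, and SAG12 highest in CK replicate 2 at 0.344 CPM. The flower markers summed to 29.3 CPM there, against 1.89 and 12.6 CPM. In HS, where AOX1D had 1, 2 and 8 counts, the senescence markers summed to 380, 330 and 231 CPM. Of these sums SAG29 alone held 261, 213 and 144 CPM. In PW the senescence markers summed to 20.7, 41.0 and 36.9 CPM. The part of senescence or flower tissue in the AOX1D counts was not tested. AOX2, known from seeds, had 0 counts in all PW libraries, 1, 0 and 15 counts in HS and 1, 0 and 0 counts in CK. The 15 counts were in HS replicate 3, where the seed markers summed to 6 counts, against 3 in CK replicate 2 and 0 in the other 7 libraries. Of these seed markers OLE1 had 4 counts in HS replicate 3, CRA1 had 2 and 2S1 had 0, all near the floor. The part of seed tissue in the AOX2 counts was not tested. Neither AOX1D nor AOX2 passed the filter, and with no filter neither passed edgeR's test in any comparison. The lowest adjusted p was 0.0668, for AOX1D in PW vs CK.

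AOX1A therefore held most of the oxidase counts in every library. Its share of the 5 genes' counts was 93.3%, 99.3% and 99.4% in PW, 99.4%, 98.8% and 89.3% in HS and 83.6%, 95.8% and 96.9% in CK. The lowest share was in CK replicate 1 (exact Clopper-Pearson 95% interval 80.1% to 86.6% of 535 counts), the library with the 75 AOX1D counts. These intervals cover counting error only.

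NDA1 and NDA2, the pair of matrix-side dehydrogenases, moved in opposite directions in both treatments. NDA1 stood at 32.5, 90.5 and 107 CPM in PW, at 96.6, 73.1 and 32.1 CPM in HS and at 3.33, 5.91 and 4.09 CPM in CK. Every heated library was above every CK library, and PW replicate 1 and HS replicate 3 were again the lowest of their groups. NDA1 rose 17.2-fold in PW vs CK (log2 4.11 ± 0.55 SE, adjusted p = 0.00103) and 15.2-fold in HS vs CK (3.92 ± 0.55, adjusted p = 0.000929) by edgeR's test. The rise was called in all 9 fits that left out 1 library, with log2 values from 3.79 to 4.47 in PW vs CK and from 3.57 to 4.26 in HS vs CK. Without PW replicate 1 and HS replicate 3 NDA1 rose by 4.48 in PW vs CK and 4.26 in HS vs CK. Among all tested genes, 0.586% changed as much or more in PW vs CK and 1.54% in HS vs CK. Between PW and HS its level did not differ beyond the spread (0.19, 95% interval from -0.89 to 1.26, adjusted p = 0.804).

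NDA2 fell in both. It stood at 4.52, 4.91 and 5.77 CPM in PW, at 10.6, 11.96 and 7.07 CPM in HS and at 19.6, 23.1 and 23.1 CPM in CK. The 3 groups did not overlap: every PW library was below every HS library, and every HS library below every CK library. The fall was 4.33-fold in PW vs CK (log2 -2.11 ± 0.21 SE, adjusted p = 0.000336) and 2.23-fold in HS vs CK (-1.15 ± 0.20, adjusted p = 0.00259). In PW vs HS it was lower by 1.95-fold (-0.96 ± 0.21, adjusted p = 0.0108, edgeR), under the 2-fold limit of a DEG. Without PW replicate 1 and HS replicate 3 this difference was -1.08 (adjusted p = 0.00194), past that limit, as it was without PW replicate 3 (-1.06) or HS replicate 3 (-1.16) alone. In HS vs CK the opposite held: NDA2 was at -0.961 without both and at -0.959 without HS replicate 3, still with a fall (adjusted p = 0.000604 and 0.00137) but under the 2-fold limit, so that it was no DEG there.

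The makeup of the pair thus differed between treatments more than its sum. NDA1 held 87.8%, 94.9% and 94.9% of the NDA1 and NDA2 counts in PW, 90.2%, 85.9% and 81.9% in HS and 14.5%, 20.4% and 15.02% in CK. Exact 95% intervals of these shares reached down to 78.4% in the heated libraries and up to 24.2% in CK. The ratio of NDA1 to NDA2 counts ran from 7.19 to 18.5 in PW, from 4.54 to 9.15 in HS and from 0.170 to 0.256 in CK. Summed, both genes came to 37.1, 95.4 and 112 CPM in PW, 107, 85.1 and 39.1 CPM in HS and 22.9, 29.0 and 27.2 CPM in CK. The sum was 37.1 CPM or more in every heated library and 29.0 CPM or less in every CK library.

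The transcript of NDA1 is known in Arabidopsis to follow light and the time of day, and clock genes differed between the groups. CCA1, a morning clock factor, stood at 27.0, 105 and 76.8 CPM in PW, at 160, 146 and 125 CPM in HS and at 1.48, 1.26 and 1.34 CPM in CK. Of 8 clock genes 3 rose and 3 fell in each treatment against CK. Over all tested genes 16.4% rose and 14.6% fell in PW vs CK, and 21.2% rose and 18.0% fell in HS vs CK. The morning genes CCA1, LHY and PRR9 rose, and TOC1, ELF4 and LUX, which act later in the day, fell. The remaining 2, GI and PRR5, passed against CK in neither treatment. PRR9 rose by log2 6.21 ± 0.43 in PW vs CK and 5.62 ± 0.42 in HS vs CK, and ELF4 fell in both (-2.96 ± 0.31 in PW and -4.23 ± 0.33 in HS, SE). Across the heated libraries CCA1 and NDA1 did not keep 1 order, since HS replicate 3 had 125 CPM of CCA1 and 32.1 CPM of NDA1. The part of the hour of sampling in the NDA1 and NDA2 levels was not tested, and with no hour given it cannot be told apart from the treatments.

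**Figure D2:**
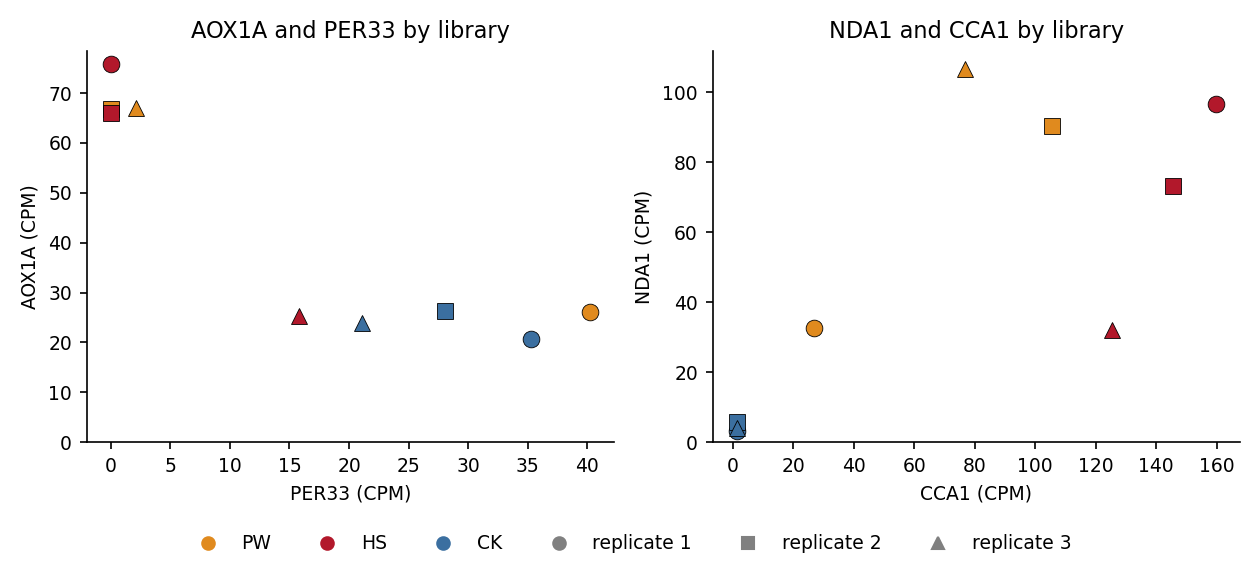
Left, AOX1A against PER33 and right, NDA1 against CCA1, both axes in CPM on a linear scale, with 1 point per library coloured by treatment and shaped by replicate. Libraries with PER33 at 15.8 CPM or more have AOX1A at 26.3 CPM or less, and the 3 CK libraries lie together at CCA1 of 1.48 CPM or less and NDA1 of 5.91 CPM or less.

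NDB2, the outer-side dehydrogenase best known for rising with AOX1A under stress, rose in HS alone among the comparisons with CK. It stood at 3.93, 7.51 and 9.68 CPM in PW, at 38.9, 30.7 and 19.5 CPM in HS and at 10.6, 9.47 and 11.4 CPM in CK. Every HS library was above every library of the other treatments, while the PW libraries reached into the CK range at 9.68 CPM. The change was 2.83-fold in HS vs CK (log2 1.50 ± 0.33 SE, adjusted p = 0.00682), and -0.58 ± 0.33 on the log2 scale in PW vs CK (adjusted p = 0.215). The difference between the treatments was tested directly: NDB2 was 4.23-fold lower in PW than in HS (-2.08 ± 0.34, adjusted p = 0.00271, edgeR), and 5.69% of tested genes differed as much. The HS rise held in all 9 fits that left out 1 library (1.26 to 1.73), as did the difference between PW and HS (-2.38 to -1.79). Without PW replicate 1 and HS replicate 3 NDB2 was at 1.73 in HS vs CK and at -2.02 in PW vs HS, both with a call. In PW vs CK NDB2 was then at -0.29 (adjusted p = 0.205, edgeR). With library size alone in place of TMM scaling, NDB2 also fell in PW vs CK (-1.03, adjusted p = 0.018), a setting that put the median of all tested genes at -0.45, against -0.04 with TMM.

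Set against AOX1A in the same library, NDB2 was low in PW. There were 0.150, 0.112 and 0.144 NDB2 counts for each AOX1A count in PW, 0.513, 0.465 and 0.768 in HS and 0.512, 0.359 and 0.480 in CK. All PW ratios were below all others, and HS and CK overlapped. NDA1 showed another arrangement, with 1.25, 1.35 and 1.59 counts for each AOX1A count in PW, 1.28, 1.11 and 1.26 in HS and 0.161, 0.224 and 0.172 in CK. The ratio of NDA1 to AOX1A thus stayed between 1.11 and 1.59 in all 6 heated libraries, PW replicate 1 and HS replicate 3 included, although both genes varied more than 2-fold among them.

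UCP1, the best known plant uncoupling protein and a carrier of dicarboxylates and amino acids, had the smallest changes against CK of the 5 well-counted genes. It stood at 36.7, 21.95 and 26.98 CPM in PW, at 23.9, 22.2 and 31.2 CPM in HS and at 33.2, 32.0 and 36.4 CPM in CK. All HS libraries were below all CK libraries, and PW overlapped both. Its log2 value was -0.25 ± 0.20 in PW vs CK (SE, adjusted p = 0.384) and -0.39 ± 0.20 in HS vs CK (adjusted p = 0.147), neither past the threshold in edgeR's test. PW replicate 1 and HS replicate 3 had the highest UCP1 of their groups, the reverse of their place for AOX1A and NDA1. Without HS replicate 3 alone UCP1 fell in HS (-0.55, adjusted p = 0.0433). Without both, it fell in PW (-0.47, adjusted p = 0.0148) and in HS (-0.55, adjusted p = 0.00514).

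**Figure D3:**
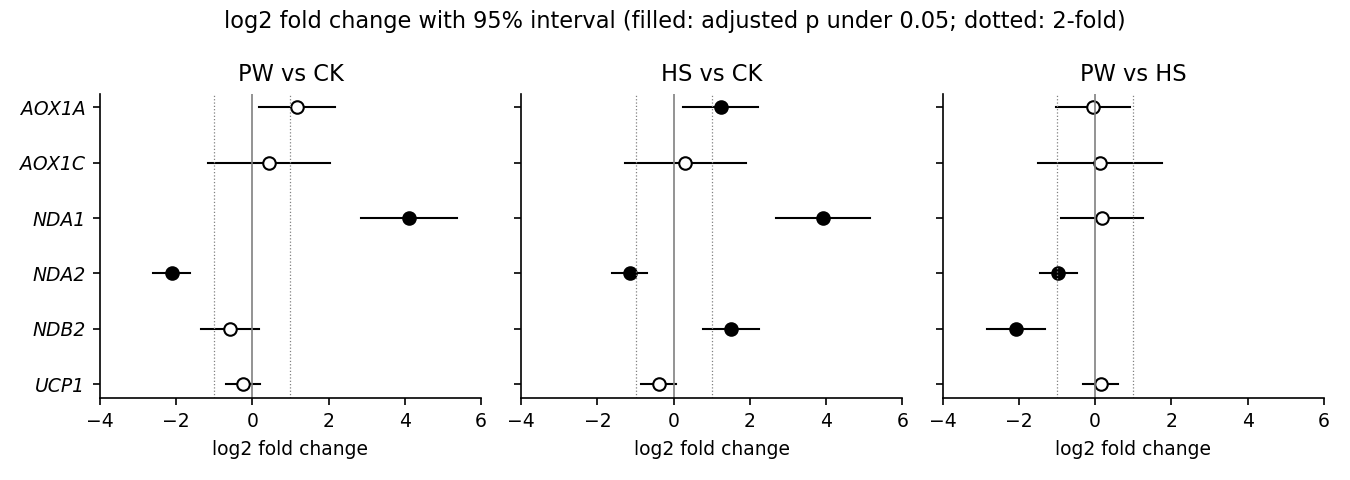
log2 fold change of the 6 tested genes (horizontal axis) with its 95% interval in PW vs CK, HS vs CK and PW vs HS, with filled points at an adjusted p under 0.05 and dotted lines at a 2-fold change. NDA1 and NDA2 have filled points on opposite sides of 0 against CK in both treatments (4.11 and -2.11 in PW, 3.92 and -1.15 in HS), and NDB2 has one at 1.50 in HS vs CK and one at -2.08 in PW vs HS.

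Counted over the 6 tested genes, 1 rose (NDA1) and 1 fell (NDA2) in PW vs CK, both DEGs. Over all tested genes 31.0% passed the adjusted p in PW vs CK, 16.4% rising and 14.6% falling, and 16.4% were DEGs (8.82% higher and 7.60% lower). In HS vs CK 3 rose (AOX1A, NDA1 and NDB2) and 1 fell (NDA2), all 4 DEGs, where 39.2% of all tested genes passed the adjusted p, 21.2% rising and 18.0% falling, and 21.8% were DEGs (11.3% higher and 10.5% lower). In PW vs HS 0 rose, also at an unadjusted p under 0.05 and by DESeq2, and 2 fell (NDA2 and NDB2), of which NDB2 was a DEG, where 26.7% passed the adjusted p, 12.4% rising and 14.2% falling, and 14.5% were DEGs (6.92% higher and 7.57% lower). PW and HS did not overlap CK in 2 and 4 of the 6 genes, where 53.1% and 57.9% of all tested genes did not, and PW did not overlap HS in 2, where 38.4% did not. These counts of non-overlap are near or below the background and are no result about the genes. Over the 6 genes the median change on the log2 scale was 0.09 in PW vs CK (-0.04 over all tested genes), 0.77 in HS vs CK (0.03 over all) and 0.03 in PW vs HS (-0.02 over all). The comparisons with CK share the CK libraries.

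Per length, as RPKM (CPM on library totals, without TMM, divided by kilobases of exon), the order of the genes also differed by treatment. In PW it was NDA1 (29.4 ± 13.3 RPKM), AOX1A (25.3 ± 9.55), UCP1 (18.5 ± 6.77), NDB2 (2.31 ± 0.797) and NDA2 (2.24 ± 0.178) (mean ± SD, n = 3 throughout). In HS it was AOX1A (30.9 ± 12.6 RPKM), NDA1 (30.4 ± 12.5), UCP1 (19.6 ± 6.02), NDB2 (11.5 ± 2.73) and NDA2 (5.07 ± 0.854). In CK it was UCP1 (28.8 ± 2.48 RPKM), AOX1A (15.3 ± 1.06), NDA2 (13.0 ± 0.627), NDB2 (4.72 ± 0.577) and NDA1 (2.33 ± 0.584), followed by AOX1D at 1.07 ± 1.47 RPKM, which rests on CK replicate 1. In PW and HS neighbours among the first 3 genes, and in PW also NDB2 and NDA2, differed by less than the larger of their SDs. In CK the steps between neighbours among the first 5 were larger than either SD. By library, UCP1 ranked first in PW replicate 1 and HS replicate 3, as in all CK libraries, and below both NDA1 and AOX1A in the other 4 heated libraries. AOX1C was at or under 0.611 RPKM on average in all treatments.

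Of the alternative dehydrogenases outside the 9 genes, NDC1 and NDB1 were tested, and against CK NDC1 rose in PW and NDB1 fell in HS. NDC1, which works in plastids as well as mitochondria, stood at 49.2, 64.5 and 59.1 CPM in PW, at 39.9, 35.8 and 28.3 CPM in HS and at 23.2, 30.3 and 30.4 CPM in CK. It rose in PW vs CK (log2 1.04 ± 0.18 SE, adjusted p = 0.00288) and was higher in PW than in HS (0.73 ± 0.18, adjusted p = 0.0157), while its value in HS vs CK was 0.31 ± 0.18 (adjusted p = 0.19). NDB1, a calcium-dependent NADPH dehydrogenase of the outer side, fell in HS vs CK (-0.92 ± 0.25, adjusted p = 0.0173) and had -0.50 ± 0.24 in PW vs CK (adjusted p = 0.153). NDB3 and NDB4 had at most 0.233 CPM in any library and were not tested.

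**Figure D4:**
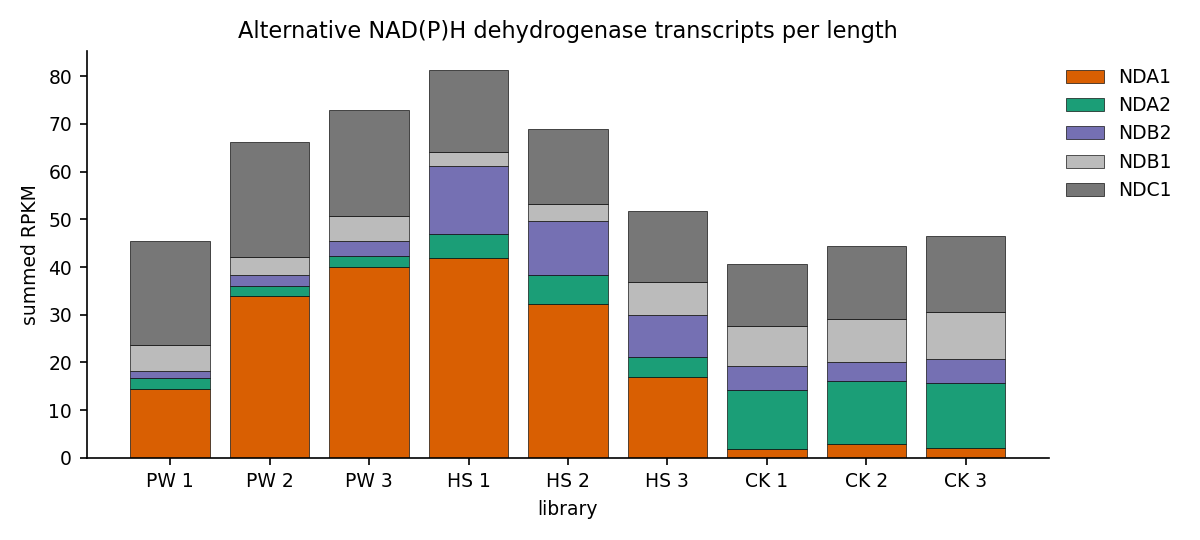
Stacked RPKM (CPM on library totals per kilobase of exon, vertical axis from 0) of NDA1, NDA2, NDB2, NDB1 and NDC1 in each of the 9 libraries. The NDA1 segment is at 14.4 RPKM or more in all heated libraries and at 2.99 RPKM or less in CK, where NDA2 is at 12.3 to 13.5 RPKM.

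Among the carriers related to UCP1, the uncoupling protein genes UCP2 and UCP3 did not pass the test in any comparison, with log2 fold changes between -0.08 and 0.16. The dicarboxylate carriers, which exchange malate, succinate and other acids across the inner membrane, each fell in 1 treatment or both. DIC1 fell in PW vs CK (-1.24 ± 0.32 SE, adjusted p = 0.0184) and in HS vs CK (-1.58 ± 0.32, adjusted p = 0.00528). DIC3 also fell in both (-3.56 ± 0.74 in PW and -2.70 ± 0.66 in HS, adjusted p = 0.00712 and 0.0115). It had only 2, 2 and 0 counts in PW and 1, 4 and 4 in HS, against 42, 29 and 17 in CK. DIC2 fell in HS vs CK (-2.58 ± 0.79, adjusted p = 0.0293) and was higher in PW than in HS by 2.58 ± 0.79 (adjusted p = 0.0398, edgeR). Its levels varied widely, at 52.8, 14.7 and 18.0 CPM in CK and 0.931, 11.2 and 2.31 CPM in HS. PTOX, the plastid relative of the alternative oxidases, passed in no comparison, with log2 values between -0.10 and 0.10.

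Of 12 known regulators of AOX1A and of the mitochondrial signal to the nucleus, 10 were tested. In PW vs CK 1 rose and 2 fell, and in HS vs CK 3 rose and 1 fell, with median log2 fold changes of -0.37 (-0.04 over all tested genes) and 0.17 (0.03 over all). Over all tested genes 16.4% rose and 14.6% fell in PW vs CK, and 21.2% rose and 18.0% fell in HS vs CK, and the lists that follow stand against the same shares. By DESeq2 4 regulators fell in PW and 2 in HS, with the same counts rising. NAC013, known to bind the mitochondrial dysfunction motif, stood at 7.77, 14.3 and 11.1 CPM in PW, at 30.8, 26.7 and 30.6 CPM in HS and at 12.1, 9.06 and 11.1 CPM in CK. It rose in HS vs CK (1.45 ± 0.22, adjusted p = 0.00123) and had 0.04 ± 0.22 in PW vs CK (adjusted p = 0.905), and it was lower in PW than in HS (-1.41 ± 0.22, adjusted p = 0.00219). Every HS library was above every PW and CK library, as for NDB2. Of all tested genes, HS did not overlap CK in 57.9% and PW did not overlap HS in 38.4%. NDA1, which holds the same motif, rose by 4.11 in PW vs CK. Any action of NAC013 on these genes was not tested. NAC017, the partner of NAC013, passed in no comparison (-0.28 ± 0.15 against CK in both treatments).

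NAC053, a related factor, rose in HS vs CK (1.06 ± 0.11 SE) and fell in PW vs CK (-0.58 ± 0.12, adjusted p = 0.00609), and NAC016 fell in PW vs CK (-1.93 ± 0.60, adjusted p = 0.0366). MYB29, known for glucosinolate synthesis and as a negative regulator of AOX1A, rose in both (2.01 ± 0.34 in PW and 1.67 ± 0.33 in HS). WRKY40, a repressor of AOX1A, fell in HS vs CK (-2.89 ± 0.73, adjusted p = 0.0129), and its CK levels of 18.0, 4.65 and 8.95 CPM varied widely.

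The genes known to respond to mitochondrial faults alongside AOX1A did not move as 1 group. Of 12, 10 were tested, and 2 rose and 2 fell in each treatment against CK, with medians of -0.62 in PW vs CK and -0.48 in HS vs CK. By DESeq2 the falls numbered 4 in PW and 3 in HS, and the rises again 2 in each. HSP23.5, a small heat shock protein of mitochondria, rose in PW (1.17 ± 0.28 SE) and in HS (4.44 ± 0.28). UPOX, a marker of oxidative stress, rose in HS (1.83 ± 0.33, adjusted p = 0.00303), had 0.05 ± 0.33 in PW vs CK, and was lower in PW than in HS (-1.78 ± 0.34, adjusted p = 0.00523). SOT12, a sulfotransferase, rose in PW only among the comparisons with CK (1.15 ± 0.21), and was higher in PW than in HS by 1.58 ± 0.21. OM66, an ATPase of the outer membrane, and AT2G41730 fell in both, with -0.98 ± 0.24 in PW and -1.22 ± 0.24 in HS for OM66.

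The main chain that the alternative enzymes bypass was read through nuclear genes of complexes I, III and IV. Of 13 complex I genes, 0 rose and 3 fell in PW vs CK, and 0 rose and 6 fell in HS vs CK, with medians of -0.42 and -0.47, where 14.6% and 18.0% of all tested genes fell. By DESeq2 the falls numbered 4 in PW and 8 in HS. By edgeR at an unadjusted p under 0.05 and by DESeq2 the rises in complex I also numbered 0 in both comparisons. Of 9 complex III genes 2 rose and 1 fell in each. The risers were both copies of the small subunit QCR7, of which QCR7-2 rose by 1.66 ± 0.30 in PW and 4.89 ± 0.30 in HS, and QCR7-1 by 0.883 ± 0.164 and 0.996 ± 0.164 (SE). Of 11 cytochrome c and complex IV genes 0 rose in PW by edgeR (1 at an unadjusted p under 0.05 and 1 by DESeq2) and 4 fell, and 3 rose and 4 fell in HS, CYTC-2 rising by 1.05 ± 0.15 in HS and COX5C-2 falling in both (-1.15 ± 0.15 in PW and -1.31 ± 0.15 in HS).

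**Figure D5:**
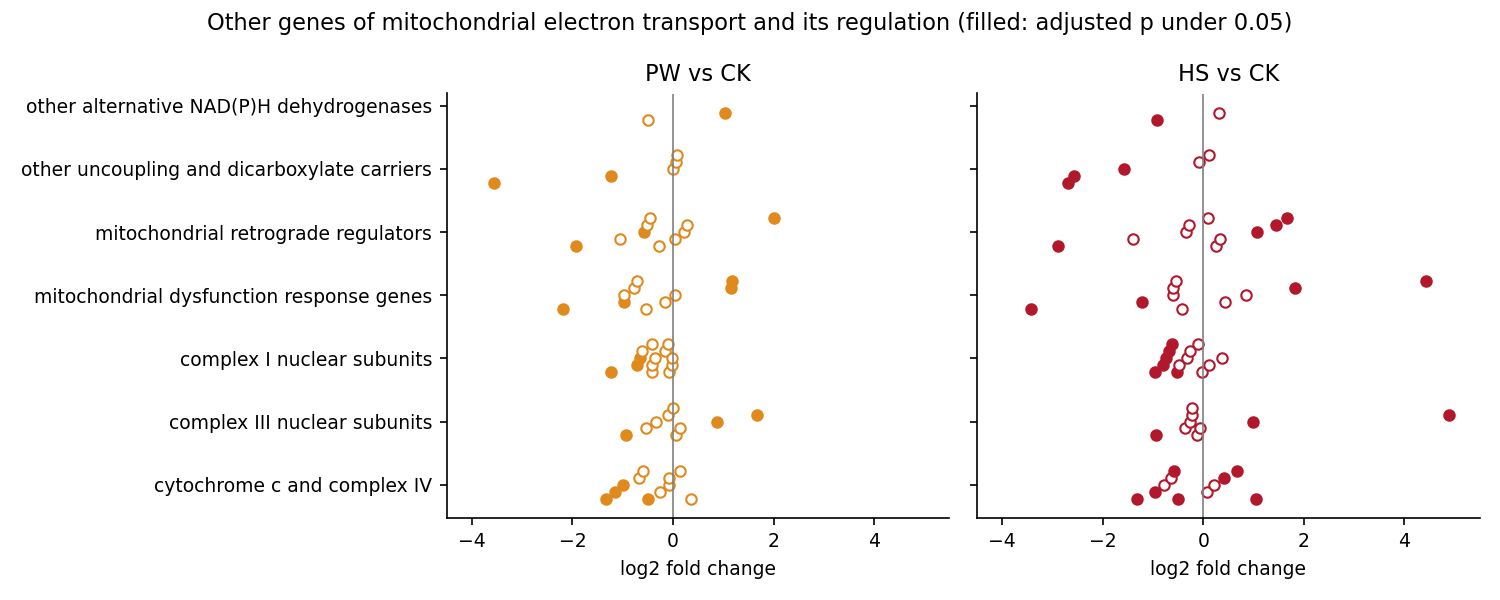
log2 fold changes in PW vs CK and HS vs CK (horizontal axes) of the tested genes of 7 lists, 1 point per gene, filled at an adjusted p under 0.05. Points lie on both sides of 0 in the regulators and the fault-response genes, while the filled points of complex I all lie below 0 (3 in PW vs CK, 6 in HS vs CK).

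Across the 9 libraries, AOX1A had a Pearson r of 0.871 with NDA1, 0.429 with NDB2 and -0.911 with UCP1 in log2 CPM. Over the 7 libraries without PW replicate 1 and HS replicate 3 these were 0.996, 0.449 and -0.918. NDA1 had -0.781 with NDA2 and 0.276 with NDB2, and -0.881 and 0.381 over the 7 libraries. These are descriptions of 9 points that fall into 3 treatments and that include PW replicate 1 and HS replicate 3. Over all 9 libraries, among 14504 genes with a mean of at least 5 CPM, those most like AOX1A were AT1G54520 (0.996), AT2G35490 (0.992) and AT3G10130 (0.990), and those most like NDA1 were AT2G42975 (0.995), FADA (0.994) and AT2G15020 (0.994). NDA2 was most like AT3G23450 (0.997), MT2A (0.995) and NiaP (0.993), NDB2 most like UGE2 (0.987), AT1G22040 (0.987) and ABI1 (0.983), and UCP1 most like AT1G08580 (0.975), RPL10B (0.975) and AT4G22000 (0.971). AOX1C, with few counts, was most like AT4G35880 (0.950), AT5G60990 (0.932) and AT1G27030 (0.929).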

How the data were processed

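Leaf RNA of 9 libraries was sequenced, 3 each of PW, HS and CK. Per the labels and the study's methods, read cleaning and TopHat2 alignment against TAIR10 preceded counting, and the deposited values are raw counts per gene from the authors, which were not normalized. The submitters' processing notes name CASAVA 1.8, TopHat2 and HTSeq 0.6.1. Strand use, the handling of reads with several matches and the annotation version are not given in the sources used here, so counts of similar paralogs such as AOX1A and AOX1B are uncertain where reads could match both. Names, exon lengths, positions and promoter sequences came from RefSeq's TAIR10.1, in which 32835 of the 33602 identifiers were matched. In all, 9126 had no count.

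Tests used R 4.3.3 and edgeR 4.0.16 (TMM, quasi-likelihood, 1 fit of 9 libraries, a coefficient per treatment) on genes that reached 10 counts in 3 or more libraries, with Benjamini-Hochberg adjustment and a threshold of 0.05. The biological coefficient of variation was 0.273. TMM factors ran from 0.811 to 1.22, and the 100 most abundant genes held from 32.9% to 38.9% of counts in PW, from 25.2% to 30.7% in HS and from 21.7% to 24.9% in CK. Correlations used log2 of CPM plus 0.5. Figures were drawn with matplotlib 3.10.9. The test was checked on simulated counts drawn independently for each gene and library. That check does not cover libraries that deviate together. Replicate numbers come from the sample names, and no source says that they mark a shared batch. Deviations from the group means correlated between same-numbered PW and CK libraries at 0.16, 0.29 and 0.33, so these were also fitted as pairs. Alternatives were other count filters, DESeq2 1.42.0 size factors and its Wald test, library size alone, only the 2 groups compared, the adjusted p alone, the replicate number as a block and leaving out libraries. Named were all 9 genes, and of every other list genes past the adjusted p, at most the 3 with the largest change in a comparison, any gene of lists of up to 5, and the 3 genes most correlated with each tested gene. NAC017, OM66, TOC1, LUX, SAG12, SGR1 and the root markers fall outside that rule and were named after their values were seen, as were GI and PRR5. The genes and lists were chosen with earlier results of these data known.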

Additional observations from a re-analysis of the deposited data

How the results depend on the processing

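Over the fits that each left out 1 library, DEGs numbered 3182 to 5735 in HS vs CK, 2378 to 3656 in PW vs CK and 2199 to 3880 in PW vs HS, and the DEGs among the 6 tested genes 3 to 4, 2 to 3 and 1 to 2. The log2 fold change of AOX1A ran from 0.96 to 1.59 in HS vs CK, from 0.98 to 1.50 in PW vs CK and from -0.42 to 0.27 in PW vs HS. That of AOX1C ran from -0.36 to 0.68, from -0.64 to 0.81 and from -0.95 to 0.81, and that of UCP1 from -0.55 to -0.29 in HS vs CK, from -0.47 to -0.0867 in PW vs CK and from -0.0744 to 0.31 in PW vs HS. NDA1 ran from -0.15 to 0.55 in PW vs HS.

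Of 143 values of the 6 genes under the other alternatives, 129 kept their direction and side of the threshold, 7 gained a call, 4 lost one and 3 changed sign. The cause was not tested. AOX1A in HS vs CK lost its call with DESeq2 size factors (1.22, adjusted p = 0.0553) and library size alone (1.01, adjusted p = 0.0559), and AOX1A in PW vs CK gained one by DESeq2's Wald test (1.19, adjusted p = 0.0292) and with only the 2 groups (1.18, adjusted p = 0.0266). NDA2 in PW vs HS missed it with only the 2 groups (-0.95, adjusted p = 0.0514). Without PW replicate 1 and HS replicate 3, AOX1A in PW vs CK was at 1.50 and UCP1 at -0.55 in HS and -0.47 in PW vs CK. All 3 had a call, and AOX1C did not pass the filter. Library size alone put the median of all genes at -0.15 in HS vs CK, -0.45 in PW vs CK and -0.26 in PW vs HS, and the share of DEGs that were higher at 39.7%, 21.7% and 27.3%, against 51.9%, 53.7% and 47.8% with TMM. With it NDB2 in PW vs CK was at -1.03 with a call, and in PW vs HS AOX1C (-0.10), NDA1 (-0.0474) and UCP1 (-0.0839) turned negative, none with a call. DEGs in PW vs HS among the 6 genes were 2 (NDA2 and NDB2), not 1, with library size alone, and also among the 5 genes tested without both libraries, and with the adjusted p alone the same 2 genes were called. Without the 2-fold minimum the calls numbered 7437 in HS vs CK (4127 DEGs with it), 5884 in PW vs CK (3112) and 5052 in PW vs HS (2746).

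No source says that the replicate numbers mark pairs. Same-numbered HS libraries did not always deviate together with PW or CK (correlations from -0.51 to 0.44), so the block was also fitted to PW and CK alone. There the fit of both groups with the block called AOX1A (1.07, adjusted p = 0.013), as the same fit did without the block, and changed no other call of the 6 genes, with 3624 DEGs. With the replicate block over all 9 libraries AOX1A in HS vs CK was at 1.23 (adjusted p = 0.0778), no other of the 6 genes changed its call, and DEGs numbered 4067 in HS vs CK, 2989 in PW vs CK and 2528 in PW vs HS. Depth limits AOX1B, AOX1C, AOX1D and AOX2, which had from 0 to 85 counts in the 3 libraries of a treatment together.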

Other observations

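Among senescence markers SAG29, a sugar transporter gene, was at 1.28, 0.674 and 1.13 CPM in PW, at 261, 213 and 144 CPM in HS and at 0.324, 0.172 and 0.0639 CPM in CK. It rose in HS vs CK by 9.95 ± 0.44 on the log2 scale (SE, adjusted p = 4.45e-06, edgeR) and in PW vs CK by 2.33 ± 0.52 (adjusted p = 0.01). NAP, a NAC factor of leaf senescence, rose in HS (2.54 ± 0.47, adjusted p = 0.00338) and had 0.55 ± 0.46 in PW vs CK (adjusted p = 0.398). ORE1 fell in PW vs CK (-2.95 ± 0.41, adjusted p = 0.00111), as did SAG13 (-2.62 ± 0.70, adjusted p = 0.0203). SAG12, the defining marker of late senescence, was at 0.344 CPM or less in every library.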
